A study of Mus musculus with 6 samples.

Results

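The liver of a single male mouse, number 194 of its series, was described by the brightness of the spots on its expression arrays. The mouse was fed ad libitum, meaning without restriction, and was killed at 17 days, in the 1st age group per its label. Its strain and genotype are not given in the sources used here. Its total RNA was hybridised to one array A and one array B, which make up 2 of the 6 arrays of the series. The other 4 arrays come from an ad libitum mouse of 174 days and a calorie-restricted mouse of 177 days and were used here only to see whether the rank of a spot repeats. Within each array the spots that carry 1 gene symbol were ranked by intensity, 4788 spots on array A and 4875 on array B, of 8448 spots on each. Together they name 7151 genes. A brightness percentile of 100 marks the brightest of these spots and 0 the dimmest, and a gene with several spots was given the median percentile over all of them.

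The liver of a mouse at this age is still growing and its hepatocytes, the main cell type, make most of the proteins of the blood plasma, convert ammonia to urea, store and release glucose, oxidise fatty acids and detoxify foreign compounds. In liver RNA the messages for albumin, apolipoproteins and protease inhibitors are known to be among the most abundant. Macrophages of the liver sinusoids, called Kupffer cells, endothelial cells, stellate cells, bile duct cells and blood cells add smaller shares of RNA. Messages of ribosomal proteins and of the respiratory chain are abundant in nearly all cells, and those of germ cells and neurons are not known as products of hepatocytes.

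Albumin, apolipoprotein A-I and metallothionein 1 had spots among the brightest of array A. Spots of the same gene differed in rank nearly as much as spots of different genes. A list of 17 germline genes had a median percentile of 69.5, with 5 genes below the 25th percentile (29.4%). The germline median was 60.4 on array B alone (14 genes). The 66 genes of cytosolic ribosomal proteins had a median of 59.4, with 1 gene below the 25th percentile (1.52%). Of all genes ranked, 22.2% lay below that percentile, a share not matched for the number of spots of a gene. After a correction for the place of a spot, described below, the list medians were 64.2 for germline and 49.5 for ribosomal genes. The values are given as ranks of spots and not as an order of transcript abundance. The length and amount of DNA in each spot are not given in the sources used here, so no level could be compared per length between genes. A single mouse gives no error between animals, and no test was possible.

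Several genes for proteins that hepatocytes secrete were bright on array A. Alb, which encodes albumin, the main protein of plasma, read 25108 in arbitrary units on its only spot and ranked 4 of 4788. Apoa1, the main protein of high-density lipoprotein, read 12061 on its only spot (percentile 99.4). Serpina1e, an alpha-1-antitrypsin gene that encodes an inhibitor of serine proteases, read 7545 on its only spot (percentile 98.6). All 3 spots were on array A, whose median over named spots was 331.3. To show the sequence next to the start of these 3 bright hepatocyte genes, the 100 bases just before each annotated start are given here 5′ to 3′ on the gene's strand, from RefSeq on the build GRCm38.p6. Capitals mark CCAAT on either strand, the core of a common promoter element. The Alb stretch is chr5:90460770-90460869 on the plus strand, that of Apoa1 is chr9:46228530-46228629 on the plus strand, and that of Serpina1e is chr12:103956898-103956997 on the minus strand.
Alb: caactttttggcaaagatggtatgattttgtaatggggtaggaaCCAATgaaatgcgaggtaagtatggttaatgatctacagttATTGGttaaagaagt
Apoa1: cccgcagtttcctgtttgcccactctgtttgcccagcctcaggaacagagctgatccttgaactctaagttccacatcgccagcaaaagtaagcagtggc
Serpina1e: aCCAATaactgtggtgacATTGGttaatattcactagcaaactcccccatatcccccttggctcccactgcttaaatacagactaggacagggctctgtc

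The letters CCAAT were found in the 250 bases before the start in the promoters of Alb and Serpina1e, and not in that of Apoa1. They were present on either strand in 35.4% of 7468 promoters of the ranked genes and in 33.8% of all 32851 promoters in the table, which holds more than 1 promoter for some genes. The share was 35.8% of 612 promoters of genes at or above the 90th percentile of brightness and 33.4% of 595 promoters of genes below the 10th. The letters TATAAA, of the TATA box, were present on either strand in 6.70% of the promoters of the bright genes, 8.07% of those of the dim genes, 6.83% of those of all ranked genes and 12.4% of all in the table. The shares of bright and dim genes thus lay within 3 percentage points of each other for both motifs. Among 15 promoters of 12 genes for hepatocyte secreted proteins, 4 held TATAAA (26.7%) and 3 held CCAAT (20%). Between 40 and 21 bases before the start, 1 of the 15 held TATAAA (6.67%), against 1.11% of the promoters of all ranked genes. These counts are small, and no enrichment was tested. A match of letters is a description and not a binding site.

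The brightness of named spots covered a wide range. On array A it ranged from 1.22 to 35323, with 157.7 at the 25th percentile, 708.5 at the 75th and 1610 at the 90th. On array B the range was 2.74 to 19456, with 173.1, 896.9 and 2073 at the same percentiles. Just inside and just outside the 90th percentile lay Sox8 (1612) and Dhx8 (1609) on array A, and Fgfr1 (2078) and Kdm7a (2066) on array B. The bottom of the scale held 23 named spots of exactly 10 and 42 below 10, on both arrays together. The order among those spots was not read, since the background treatment is not given in the sources used here.

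**Figure D1:**
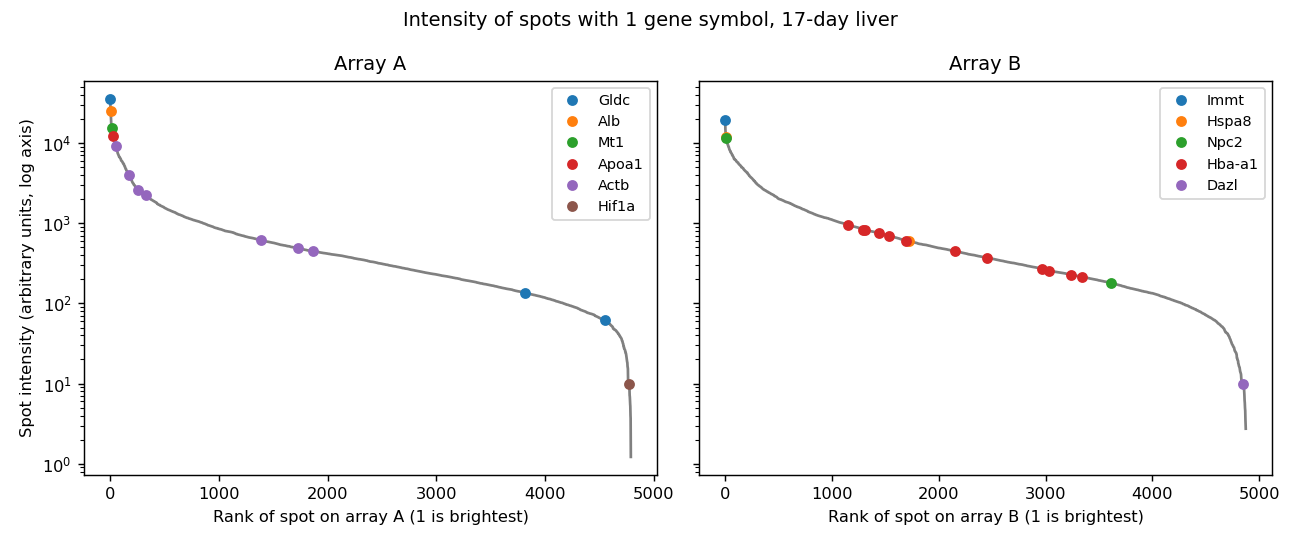
Spot intensity in arbitrary units (log axis) against the rank of the spot within array A (left) and array B (right) for the liver of the 17-day mouse; the grey line joins all spots with 1 gene symbol and coloured points mark the spots of chosen genes. The 3 Gldc spots of array A lie at both ends of the curve (35323, 135 and 61.6), the 7 Actb spots lie between 448.8 and 9263, and the 12 Hba-a1 spots of array B spread over the middle, from 214.5 to 958.2.

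The 15 brightest named spots of array A mixed liver functions with genes that have no known special role in liver. Gldc, the glycine decarboxylase of the mitochondrial glycine cleavage system, which is active in liver, was the brightest at 35323. Pfpl followed at 27352 and Rnf103, a ubiquitin ligase of the endoplasmic reticulum, at 25807. After Alb came Bod1l, a protein that protects replicating DNA (21501), the transferrin receptor Tfrc, which takes up iron (21440), and the galactoside-binding lectin Lgals1 (21275).

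The rest of the 15 on array A read from 14580 to 19721. They were the mRNA export factor Nxf1 (19721), the glutathione transferase Gstm2 (18684), Sigirr, an inhibitor of interleukin-1 receptor signalling (16817), Shroom2, an actin-binding protein (15788), and the spliceosomal protein Snrpb2 (15773). Mt1, a metallothionein that binds zinc and copper, read 15399, Chd1l, a chromatin remodeller, 14604 and Brwd1, a bromodomain protein, 14580. Of these 15 spots, those of Alb, Gldc, Gstm2 and Mt1 belong to genes known for high expression in liver.

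On array B the brightest named spot was that of Immt, which shapes the cristae of mitochondria, at 19456. Slit2, a secreted guidance protein, read 14678 and Slc6a13, a carrier of GABA and taurine that is known in liver, 14630. Mapk13, a p38 kinase (13605), the crystallin-related dehydrogenase Cryl1 (13090), the proteasome component Sem1 (12659) and the zinc finger gene Zfp410 (12562) came next.

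The other 8 on array B were the D-type cyclin Ccnd2 (12508), the transcription inhibitor Hexim2 (12191), the unfolding ATPase Vcp (12048), the constitutive chaperone Hspa8 (11902), the lysosomal cholesterol carrier Npc2 (11403), the replicative helicase subunit Mcm4 (11111), the nuclear pore protein Aaas (10752) and H2-K1, which presents peptides at the surface of most cells (10713). Hspa8, Vcp and H2-K1 are housekeeping or broadly expressed genes. No secreted plasma protein was among the 15 brightest spots of array B. Of the 17 genes listed for hepatocyte secreted proteins, only 6 had a named spot on array B, and 11 had one on array A.

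Each of these 30 spots belonged to a different gene, and 15 of the 30 genes had at least 1 further spot. The 30 further spots had a median percentile of 44.4, from 5.002 to 98.1, and only 3 of them reached the 90th percentile, 1 each of Ccnd2, Hspa8 and Vcp. The background was 10% of all spots on either array. Of the further spots, 16 lay below the 50th percentile. The other Gldc spots read 135 (percentile 20.3) and 61.6 (percentile 5.002), those of Lgals1 101.5 and 99.04 (percentiles 13.2 and 12.8), and those of Tfrc 312.4 on array A and 93.7 on array B (percentiles 47.9 and 11.2). The 2 other spots of Npc2 were at percentiles 18.2 and 26.0. The share of further spots at or above the 90th percentile was thus that of all spots. Alb, Mt1 and Mapk13 had 1 spot each, so their ranks could not be compared with a further spot.

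The rank of a spot repeated between animals. Over the named spots of array A, percentiles of the 17-day mouse and of the calorie-restricted mouse correlated with a Spearman rho of 0.959, and with the 174-day mouse at 0.926. On array B the values were 0.975 and 0.968. These points share the spotted DNA and the place on the array, so the correlations describe spots and not genes. Of the 479 spots at or above the 90th percentile on array A, 416 were so in the older ad libitum mouse and 387 under calorie restriction, and on array B 443 and 420 of 488 were. At the dim end fewer repeated on array A, where 263 and 377 of 479 spots below the 10th percentile were below it in the same mice. On array B 390 and 409 of 487 were.

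Spots of the same gene, in contrast, ranked almost as far apart as spots of different genes. Of the 7151 genes, 5293 had 1 spot, 1383 had 2 and 475 had 3 or more. Over the 1956 pairs of spots of 1 gene on the same array, the median difference was 25.2 points, with 10.96 and 45.6 at the quartiles. Over all 23338497 pairs of spots of different genes on the same array it was 29.3 points, with 13.4 and 50.01 at the quartiles. Pairs on different arrays, 1497 of them, differed by 27.1 points. With each gene taken once, at the median over its pairs on the same array, the median was 27.3 points over 1226 genes.

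Close and distant pairs were both common. A difference of at most 10 points was found for 23.6% of pairs of 1 gene and 18.98% of pairs of different genes. A difference of more than 50 points was found for 21.4% and 25%. Of 372 pairs of 1 gene with at least 1 spot at or above the 90th percentile, 47 had both there (12.6%), against 5.26% for pairs of different genes. The share was 7.41% for pairs of 1 gene on different arrays (20 of 270). Pairs of 1 gene are not independent, and genes with many spots weigh more in these counts. All pairs among the 5 spots of the ferritin gene Ftl1 are within the 47. Of 363 pairs with at least 1 spot below the 10th percentile, 29 had both there (7.99%), against 5.25%. Of all variance in percentile among the 4370 spots of genes with several spots, 6.33% lay between genes. These shares describe the spots of 1 mouse and carry no test.

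**Figure D2:**
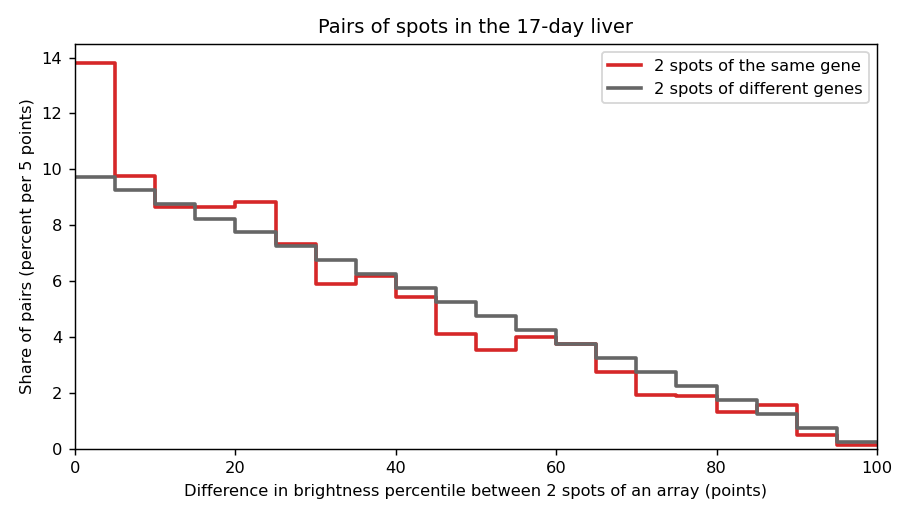
Share of pairs of spots (percent per 5 points) against their difference in brightness percentile, for 2 spots of the same gene on the same array (red, 1956 pairs) and 2 spots of different genes (grey, 23338497 pairs). The lines lie close together except at the left end, where differences of at most 10 points make up 23.6% of the pairs of 1 gene and 18.98% of the others.

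The place of a spot in the table went with its brightness. Over all spots in the order of the table, the ranks on array A correlated most with those 22 spots further on (r = 0.393), against 0.069 for the next spot, and on array B the values were 0.459 and 0.168. The spots were therefore put into sets by 16 blocks of 528 consecutive spots and 22 places within each row of a block, which gives 352 sets of 24 spots an array. Of the variance in percentile, 25.8% on array A and 37.9% on array B lay between these sets. Set medians ran from percentile 3.28 to 92.7 on array A and from 1.78 to 95.6 on array B. The place at position 21 was the dimmest on both arrays, with medians of 13.5 and 5.40. The layout on the physical array is not given in the sources used here.

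Spots of 1 gene in the same set were closer, with a median difference of 14.1 points over 146 pairs, against 26.2 over the 1810 pairs in other sets of the same array. After the median of each set was removed, the median difference over all pairs of 1 gene on an array was 27.6 points and the share of variance between genes 3.87%. On that scale 28 of 373 pairs with a spot at or above the 90th percentile had both there (7.51%). On array B the 779 named spots with accessions that start with BQ, all at places 18 to 22, had a median percentile of 15.6, and of 51.7 after set medians were removed. Removal of set medians moved the median of 24 of 42 gene lists by more than 5 points, and the values are given beside the genes and lists below.

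**Figure D3:**
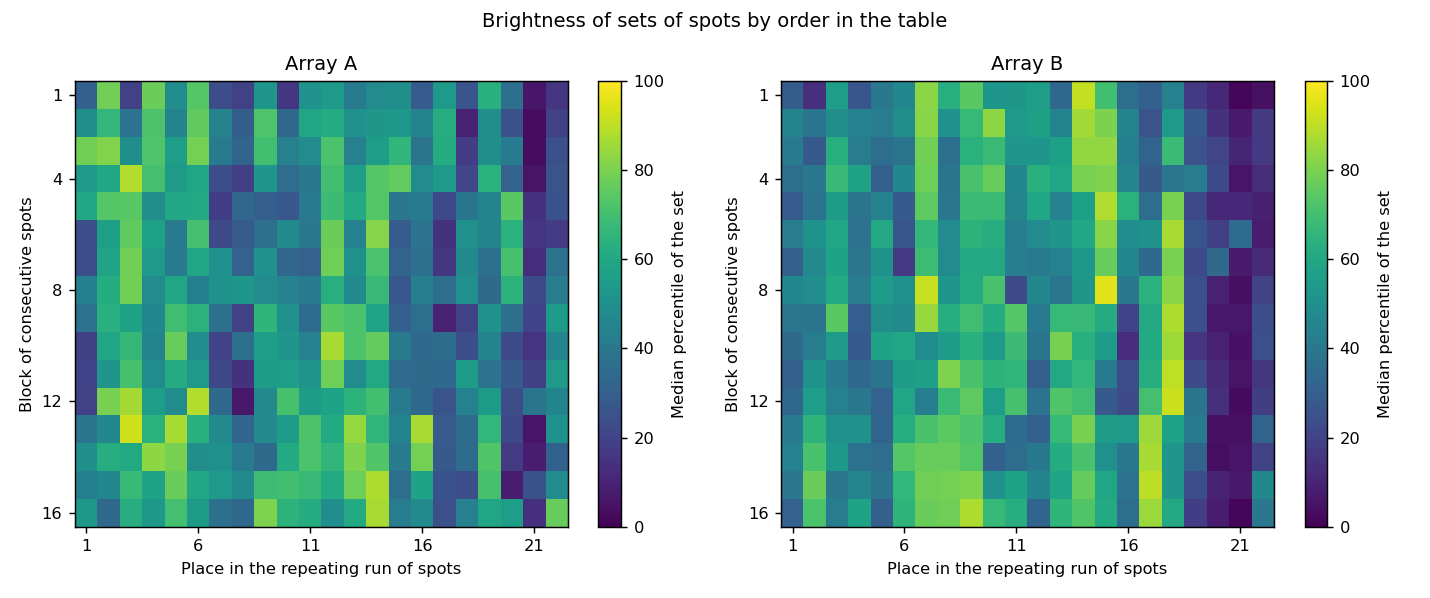
Median brightness percentile of each set of 24 spots for array A (left) and array B (right), by the block of consecutive spots (vertical) and the place within the repeating run of 22 spots (horizontal). Vertical bands show that places differ alike in several blocks, and place 21 is the dimmest on both arrays, at medians of 13.5 and 5.40.

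A single accession was spotted more than once among the named spots. It belongs to Vcp and read 12048 and 6177 on array B (percentiles 99.8 and 98.1). Another Vcp spot of array B, with a different accession, read 141.8 (percentile 19.7), and the Vcp spot of array A read 1404 (percentile 88.1). Both spots of the repeated accession lie in the same set, where pairs of 1 gene were closer in any case.

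Among 475 genes with at least 3 spots, the range between the dimmest and the brightest spot had a median of 53.1 points, with 34.0 and 67.2 at the quartiles. The range was over 50 points in 256 of them (53.9%) and under 10 points in 14. Ftl1, the light chain of the iron store ferritin, was the 1 gene with 3 or more spots that had all of them at or above the 90th percentile. Its 5 spots, all on array A, read 11939, 2255, 2148, 2063 and 1960. They lay between percentiles 92.1 and 99.4. After removal of set medians, 1 Ftl1 spot lay at 95.7 and the other 4 between 60.7 and 70.9, and 3 of the 5 share a set. At the dim end 13 of the 475 genes had all of their spots below the 25th percentile. For neither end was the share among groups of unrelated spots computed, so these counts carry no reading beyond the genes named. The 13 included Apc, a brake on Wnt signalling (5.19 to 13.6, 4 spots), the S-phase cyclin Ccna2 (5.94 to 22.4), Cd63, a membrane protein of late endosomes (7.88 to 20.99), and the nuclear import receptor Kpnb1 (15.4 to 22.8). With set medians removed, all Apc spots were still below the 25th percentile, while Ccna2, Cd63 and Kpnb1 each had 1 spot above it (33.4, 29.9 and 29.3).

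The narrowest ranges belonged to genes at all levels, and some were narrow only as ranked. Atp5b, the catalytic beta subunit of mitochondrial ATP synthase, had 3 spots between percentiles 79.9 and 81.4. Nabp1, a single-stranded DNA binding protein, lay between 52.9 and 56.2, and Rpl35, of the large ribosomal subunit, between 34.7 and 38.3. Ywhab, a 14-3-3 protein, had 3 spots from 9.84 to 16.6, Ermp1, a peptidase of the endoplasmic reticulum, 3 from 7.38 to 14.8, and Ltf, lactoferrin, an iron-binding protein of neutrophil granules and secretions, 3 from 88.9 to 96.3. On the scale without set medians, the Atp5b spots lay at 80.4, 79.03 and 44.2, those of Nabp1 at 66.4, 64.8 and 28.9, and those of Ywhab from 9.16 to 49.7. The Ltf spots stayed between 89.4 and 97.9.

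The widest ranges spanned nearly the whole array. Srsf10, a splicing regulator, had 5 spots from percentile 2.80 to 99.4. Dmxl2 had 3 from 1.93 to 97.7, the chromatin reader Bptf 4 from 4.23 to 99.5, and Tkt, transketolase of the pentose phosphate pathway, 4 from 1.08 to 95.7. Phf20 (2.70 to 96.7) and Ggps1, which makes geranylgeranyl diphosphate (5.41 to 97.9), were similar, as were Gldc and H19. In these genes the median over spots depends on which accessions happen to be present.

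By the median over at least 3 spots, the brightest genes were Rpl31, a ribosomal protein gene (98.2), Fau, which encodes ribosomal protein S30 fused to a ubiquitin-like protein (95.8), Col18a1, a basement membrane collagen (95.7), Tubb5, a beta tubulin (95.5), and Tiparp, a target of the aryl hydrocarbon receptor (95.3). Sars, a seryl-tRNA synthetase (94.8), Mtdh (93.9), Phf20 (93.5), Ltf (93.4) and Abl2, a tyrosine kinase (93.3), followed. Fau had 4 spots, of which 3 lay between percentiles 92.8 and 99.1 and 1 at 27.7. The dimmest were Ank3, an ankyrin of the membrane skeleton (2.53), Zfp638 (3.46), Gpbp1 (3.78), Gm11545 (4.06) and Tmem167 (4.44), then the spindle protein Tacc3 (5.27), Usp40, a deubiquitinase (5.31), Ppp3cb, a calcineurin subunit (5.79), Blzf1 (7.09) and Coq10b (7.11). Ank3 and Tacc3 had all spots below the 25th percentile, whereas each of the other 8 had a spot between percentiles 40.8 (Coq10b) and 85.2 (Gm11545). Once set medians were removed, the medians were 56.8 for Ank3, 51.9 for Zfp638, 56.9 for Tmem167, 39.4 for Usp40 and 68.7 for Blzf1, and between 4.40 and 16.7 for the other 5. All 3 Ank3 spots carry BQ accessions. The medians of the 10 brightest genes lay between 70.5 (Phf20) and 97.2 (Tiparp) on that scale.

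The 11 genes with 6 or more spots show how far several spots of a gene spread. Hba-a1, an alpha globin gene of red cells, had 12 spots, all on array B. They read from 214.5 to 958.2 with percentiles from 31.5 to 76.4 and a median of 60.5, which was 33.99 after removal of set medians. Spots of Hba-a1 and of its near-identical copy Hba-a2 (4 spots, percentiles 37.9 to 97.1) may each take up RNA of both genes, which was not tested.

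H19, an imprinted RNA that is abundant in fetal liver and falls after birth, had 7 spots from percentile 6.72 to 98.9, with a median of 39.8, and of 16.4 after removal of set medians. Actb, cytoplasmic beta actin, had 7 spots on array A at 9263, 3961, 2609, 2216, 614.5, 485 and 448.8. Of these Actb spots, 4 lay between percentiles 93.2 and 98.9 and 3 between percentiles 61.1 and 71.1. Spots of Actb may also take up RNA of other actin genes, which was not tested.

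Genes of translation with many spots ranked at different levels. Rpsa, of the small ribosomal subunit, had 6 spots from percentile 46.1 to 99.3 (median 69.8), Rpl4 6 from 37.9 to 77.1 (63.8) and the elongation factor gene Eef1g 7 from 33.4 to 97.4 (83.9). After removal of set medians the medians were 74.3 for Rpsa, 39.99 for Rpl4 and 43.8 for Eef1g. Eif3a, the largest subunit of initiation factor 3, lay lower, with 7 spots from 3.44 to 81.0 (27.2), and so did the mRNA-binding protein gene Serbp1 (13.2 to 83.1, median 24.03). The stress-inducible chaperone Hsp90aa1 had 7 spots from 22.7 to 96.4 (63.2), the nuclear RNA-binding protein gene Sfpq 7 from 9.37 to 76.0 (40.2), and Ccnd2 6 from 7.91 to 99.8 (62.4). On the scale with set medians removed these medians were 20.1 for Eif3a, 17.8 for Serbp1, 43.9 for Hsp90aa1, 50.3 for Sfpq, 48.4 for Ccnd2 and 81.8 for Actb.

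**Figure D4:**
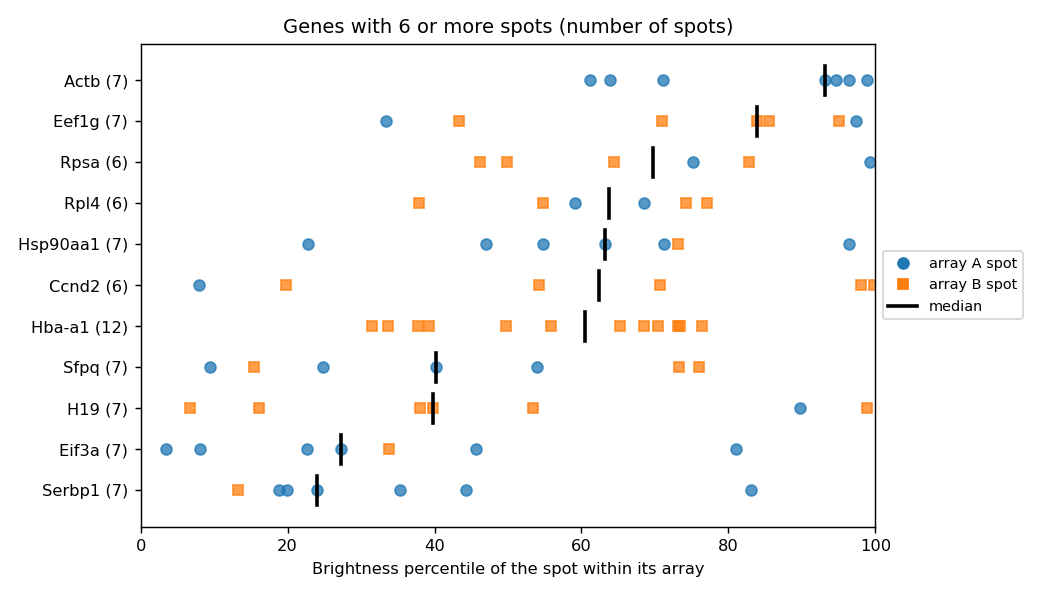
Brightness percentile of every spot of the 11 genes with 6 or more spots in the 17-day liver; blue circles are spots of array A, orange squares spots of array B and black bars the median over the spots of a gene. The spots of Ccnd2 and H19 run over 91.9 and 92.2 points, while the 12 spots of Hba-a1 lie between percentiles 31.5 and 76.4.

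Genes were then grouped into 43 lists by function or cell type, of which 42 had at least 5 genes on the arrays. The background is that 8.08% of all 7151 genes had a median at or above the 90th percentile and 22.2% a median below the 25th. A gene with 1 spot reached the 90th percentile in 9.88% of cases and a gene with 3 or more spots in 4.42%. Of 1585 distinct genes on the lists, 134 were at or above the 90th percentile (8.45%). Among the 27 lists with at least 20 genes, medians ran from 41.1 to 68.4, and 23 of them lay between 40 and 60. Most functions were thus spread over the whole range of brightness. In whole tissue, fewer cells of a type and less RNA per cell cannot be told apart.

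**Figure D5:**
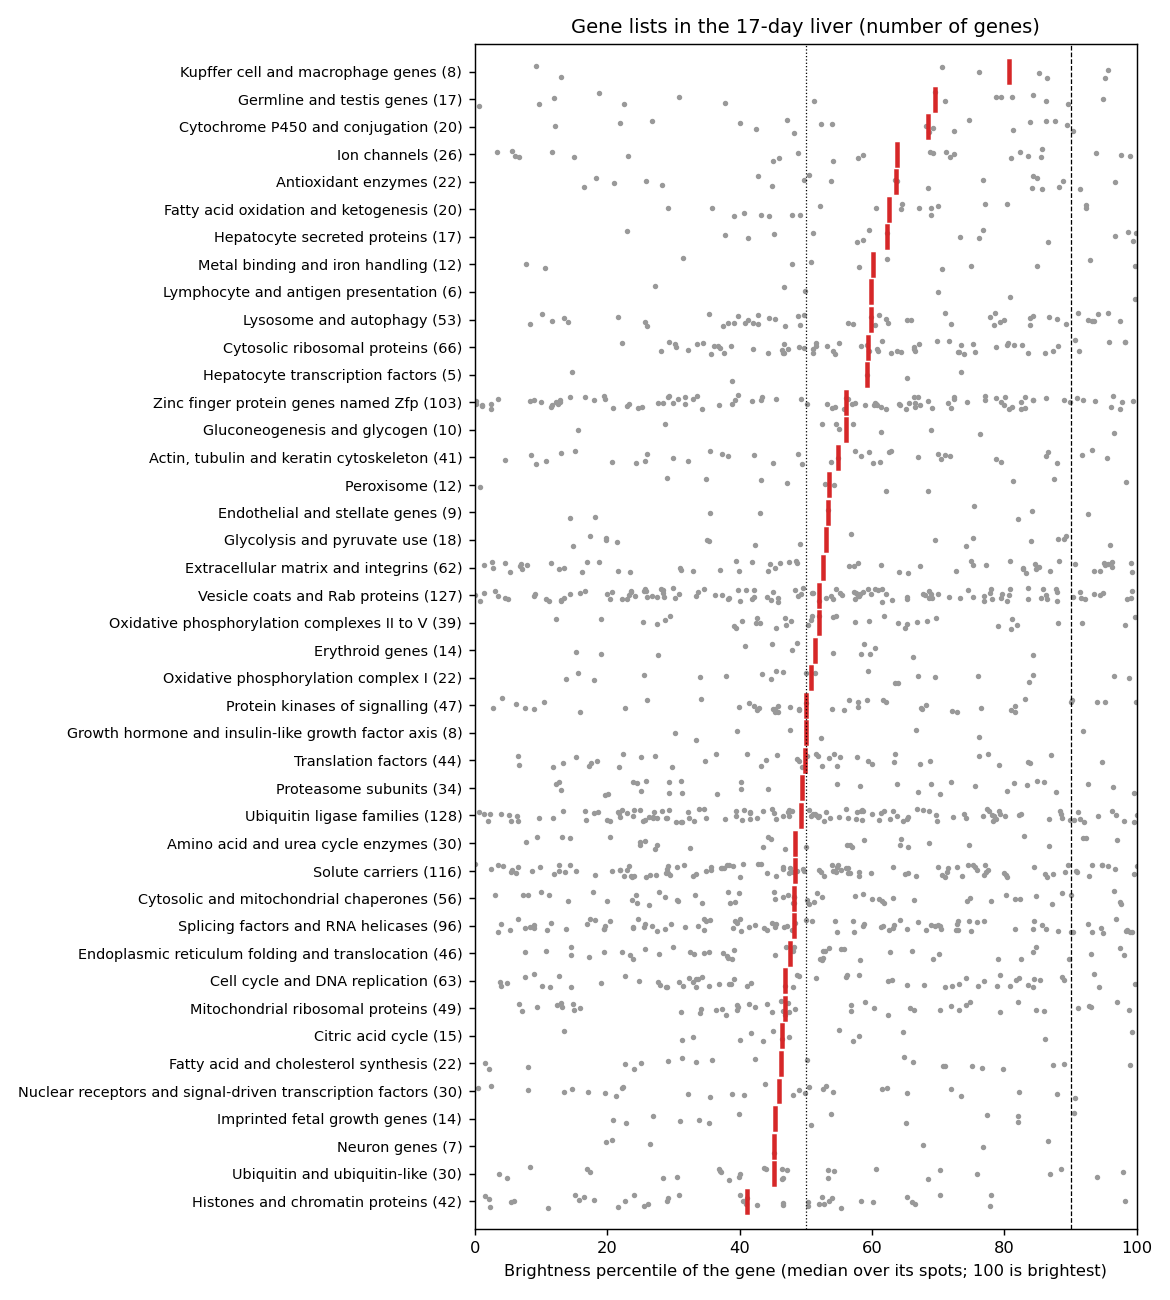
Brightness percentile of each gene (grey points, median over its spots) and the median of each list (red bars) for the 42 lists with at least 5 genes, with the number of genes in brackets; the dotted line is the 50th and the dashed line the 90th percentile. As ranked, Kupffer cell genes (8 genes) have the highest median, at 80.7, and histone and chromatin genes the lowest, at 41.1. After removal of set medians these were 55.1 and 37.98, and the Kupffer median was no longer the highest.

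Genes for proteins that hepatocytes secrete had a median percentile of 62.3 over 17 genes, each with 1 spot. Of these, 4 were at or above the 90th percentile (23.5%, against 8.08% of all genes), among them Alb, Apoa1 and Serpina1e. Below the 25th percentile lay 1 gene (5.88%, against 22.2%). Serpina6, the carrier of corticosteroids in blood, read 1271 (percentile 86.6) and Selenop, the plasma carrier of selenium, 972.7 (percentile 76.7). The fibrinogen chain gene Fga read 663.1 (percentile 73.3).

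Not all secreted proteins were bright. Apob, the structural protein of very-low-density lipoprotein, read 231.4 (percentile 37.8) and Apoa4, another apolipoprotein, 148.4 (percentile 22.95). Serping1, the C1 inhibitor of complement, read 287.1 (percentile 41.2). With set medians removed, the list median was 72.0 and 6 of 17 genes were at or above the 90th percentile, against 7.97% of all genes on that scale. Of 14 hepatocyte markers, 5 had a named spot, and 4 of those were at or above the 90th percentile, the exception being Apob. Among the markers with no named spot here were Ahsg, Cps1 and Hnf4a, so the tissue label was checked on few markers.

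The 5 hepatocyte transcription factor genes with spots had a median of 59.2, and of 65.1 after removal of set medians. Nr5a2, a nuclear receptor of bile acid synthesis, had spots at 1276 and 437.3, Nr0b2, its repressor, read 604.5, and Xbp1, a driver of secretory capacity, 492.1. Foxa1 read 266.5 (percentile 38.9) and Ppara, which turns on fatty acid oxidation, 108.5 (percentile 14.7).

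Detoxification and antioxidant genes were among the larger lists with high medians. Cytochrome P450 and conjugation genes had a median of 68.4 over 20 genes. Of these, 1 was at or above the 90th percentile (5%, against 8.08% of all genes) and 2 were below the 25th (10%, against 22.2%). The gene at the top was Gstp1, a glutathione transferase that is higher in male than in female mouse liver (1647, percentile 90.3). Gstm1 had spots at 3296, 1979 and 735.1, and Aox3, a liver aldehyde oxidase, read 1771 (percentile 87.6). The dim end held Cyp39a1, of bile acid synthesis (153.2, percentile 21.9), and the epoxide hydrolase Ephx1 (98.2, percentile 12.03). The list median was 66.3 after removal of set medians.

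Antioxidant enzymes had a median of 63.6 over 22 genes, with 2 at or above the 90th percentile (9.09%, near the 8.08% of all genes). The peroxiredoxin Prdx2, which is abundant in red cells, read 4895 (percentile 96.7) and the thioredoxin reductase Txnrd1 1825 (percentile 91.3). The heme oxygenase Hmox1, which breaks down heme, read 1412 and the glutathione peroxidase Gpx1 1197. Gpx3, a plasma form (134.5), and Glrx (117.3) were dim. The median fell to 57.6 after removal of set medians, was 84.3 on array A alone (11 genes) and 52.1 on array B alone (12 genes).

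Genes that bind metal or handle iron spread widely, with a median of 60.1 over 12 genes. The list median was 68.1 on array A alone (8 genes), 31.4 on array B alone (5 genes) and 47.9 after removal of set medians. Mt1 and Ftl1 were at or above the 90th percentile, and Fth1, the heavy chain of ferritin, read 1141 (percentile 84.9). Mt2, the close relative of Mt1, read 341 (percentile 50.7). The copper transporter Atp7b (74.5, percentile 7.76) and the copper chaperone Atox1 (89.3, percentile 10.6) were dim. Mt1 and Mt2 are alike in sequence, so a spot of either may take up RNA of the other, which was not tested.

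Ribosomal protein genes of the cytosol were moderately bright as ranked, and few had a low median over their spots. Their median was 59.4 over 66 genes with 149 spots, 5 were at or above the 90th percentile (7.58%, near the background of 8.08%) and 1 was below the 25th (1.52%, against 22.2% of all genes). These backgrounds are not matched for the number of spots, since 5293 of all 7151 genes had 1 spot. A gene with 3 or more spots reached the 90th percentile in 4.42% of cases, against 9.88% with 1 spot. Rpl31, Rpl39 (6240, percentile 98.2), Fau, Rpl30 (1817, percentile 91.2) and Rpl36a (1704, percentile 90.7) were the brightest of the list, and Rps27l (144.1, percentile 22.3) the dimmest. Genes of the large subunit had a median of 59.4 over 42 genes and those of the small subunit 54.1 over 23. Their spots lay in sets with a median percentile of 59.1, and after removal of set medians the list median was 49.5. The part of spot position in the higher brightness was not tested further.

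Ribosomal proteins of mitochondria had a median of 46.8 over 49 genes. Of these, 5 were at or above the 90th percentile (10.2%, against 8.08% of all genes) and 9 below the 25th (18.4%, against 22.2%). Mrpl1 and Mrpl38 were the brightest, with intensities of 7495 and 4853, and Mrpl13 and Mrpl2 the dimmest, with intensities of 69.1 and 71.8. The list median was 49.5 after removal of set medians. Translation factors had a median of 49.8 over 44 genes, and of 44.5 after that removal. Only Eif4g3, a scaffold of cap-dependent initiation, was at or above the 90th percentile (2.27% of the list, against 8.08% of all genes). Its spot of array A read 2816 and that of array B 3269.5. Eef1a1, which delivers aminoacyl-tRNA and is known as one of the most abundant messages of a cell, had spots at 1151, 1086 and 463.2 (percentiles 80.3, 79.2 and 57.0).

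Genes of the respiratory chain and ATP synthase lay near the middle. Complex I genes had a median of 50.7 over 22 genes, and genes of complexes II to V one of 51.9 over 39 genes. Of those 39 genes, 3 were at or above the 90th percentile (7.69%, near the 8.08% of all genes). Below the 25th percentile lay 2 of them (5.13%, against 22.2%). Cyc1, cytochrome c1 of complex III, read 14303 (percentile 99.7), Uqcr11, of the same complex, 6238, and Ndufa12, of complex I, 7431. Cox5a, of complex IV, read 100.5 (percentile 12.3) and Ndufc1, of complex I, 108 (percentile 13.8). Subunits of the same complex thus lay near both ends of the ranking. On the scale without set medians, the list medians were 42.97 for complex I and 54.6 for complexes II to V.

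Genes of intermediary metabolism were mixed. Fatty acid oxidation and ketogenesis had a median of 62.53 over 20 genes and none below the 25th percentile, against 22.2% of all genes. The short-chain acyl-CoA dehydrogenase Acads read 2006 and Echs1, the enoyl-CoA hydratase, 1999 (percentile 92.3 for both), whereas Hadha, of the trifunctional protein, read 198.9 (percentile 29.1). The list median was 63.0 after removal of set medians and 49.7 on array A alone (11 genes).

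Fatty acid and cholesterol synthesis had a median of 46.2 over 22 genes. Gpam, the first enzyme of triglyceride synthesis, read 9341 (percentile 98.9), while Elovl1 and Fads1 were dim, with intensities of 19.5 and 38.7. The list median was 46.2 after removal of set medians too, but 64.8 on array A alone (17 genes) and 31.3 on array B alone (7 genes). With each gene at its brightest spot it was 63.4. For 30 amino acid and urea cycle enzymes the median was 48.4, and 55.4 after removal of set medians. The alanine aminotransferase Gpt read 4721 (percentile 97.0), Bhmt, which remethylates homocysteine, 2002 (percentile 92.3), Pcca, of propionate breakdown, 1911 (percentile 91.8), and the urea cycle enzyme Asl 1274 (percentile 86.7). Gcsh, a partner of Gldc in the glycine cleavage system, read 74.2 (percentile 7.70).

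Glucose metabolism showed the same spread. The glycogen and gluconeogenesis list had a median of 56.0 over 10 genes, led by Ugp2, which makes UDP-glucose (4746, percentile 96.5), and glycolysis one of 53.0 over 18, led by Pgk1 (3455, percentile 95.9). Ldha, the lactate dehydrogenase subunit of liver, read 1516 on array A (percentile 89.3), and Ldhb, the heart subunit, 114.5 on array B (percentile 14.8). The median of 15 citric acid cycle genes was 46.4, and Idh2, the mitochondrial isocitrate dehydrogenase, read 11541 (percentile 99.3). Once set medians were removed, the medians were 66.7 for glycogen and gluconeogenesis, 47.8 for glycolysis and 44.5 for the citric acid cycle.

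Protein folding and turnover genes centred near the middle too. Chaperones had a median of 48.2 over 56 genes, led by the mitochondrial chaperonin partner Hspe1 (5584), and genes of folding and translocation in the endoplasmic reticulum one of 47.5 over 46 genes, led by the signal peptidase subunit Spcs2 (6471). Proteasome subunits had a median of 49.5 over 34 genes, with the assembly factor Psmd9 at 12497 and Psmd5 at 100.4. After removal of set medians these 3 medians were 43.4, 39.6 and 44.2. Lysosome and autophagy genes had a median of 59.8 over 53 genes. Of these, 7 were at or above the 90th percentile (13.2%, against 8.08% of all genes) and 6 below the 25th (11.3%, against 22.2%). Ctsz and Ctsb, cathepsins, read 5494 and 2430, and Atg7, an enzyme of autophagosome formation, had spots at 6430 and 1419. The lysosome median was 71.5 on array A alone (34 genes) and 53.7 after removal of set medians. On that last scale 9 of 53 genes were at or above the 90th percentile, against 7.97% of all genes.

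Genes of other liver cells and of blood were present at all levels. Kupffer cell and macrophage genes had a median of 80.7 over 8 genes with 1 spot each. Of these, 2 were at or above the 90th percentile (25%, against 8.08% of all genes) and 2 below the 25th (25%, against 22.2%). The Fc receptor genes Fcer1g (4101) and Fcgr1 (3758) were the brightest. The complement genes C1qb and C1qc read 1505 and 949.5 on array B (percentiles 85.3 and 76.2). C1qa, whose product joins theirs in the C1q protein, read 81.6 (percentile 9.28). Their spots lay in sets with a median percentile of 69.9, and the list median was 55.1 after removal of set medians. Of 9 Kupffer and macrophage markers 4 had a named spot, Lyz2 (1263) and the 3 C1q genes.

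The median of 14 erythroid genes was 51.4, and none was at or above the 90th percentile, against 8.08% of all genes. Alas2, the first enzyme of heme synthesis in red cell precursors, read 117.1 (percentile 15.3), and Hba-x, an embryonic globin, 138.3 (percentile 19.03). The band 3 anion exchanger gene Slc4a1 of red cells lay at percentile 54.1. The list median was 49.2 after removal of set medians.

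Of 7 endothelial markers 3 had a named spot. The adhesion molecule gene Pecam1 read 2109 (percentile 92.7), the scavenger receptor gene Stab1 411.5 (percentile 53.4) and the cadherin gene Cdh5 270.1 (percentile 43.03). Of 7 stellate cell and fibroblast markers 5 had one. The collagen gene Col3a1 had 4 spots from percentile 60.2 to 93.7, Col1a2 lay at 85.5 and 27.5, Col1a1 at 72.7, the smooth muscle actin gene Acta2 at 35.6, and Dcn, decorin, at 48.1 and 13.9. Of the bile duct markers Epcam lay at percentile 73.5, Krt7 at 61.3 and Krt19 at 13.02. The fetal growth factor gene Igf2 had a spot at percentile 20.3 of array A and another at 81.2 of array B, and Cpa1, a digestive enzyme of the pancreas, at 76.2. S100a9, of neutrophils, lay at percentile 2.82. None of 8 muscle markers and none of 8 lymphocyte markers had a named spot.

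Cell cycle and replication genes had a median of 46.8 over 63 genes, and of 46.6 after removal of set medians. The list median was 39.1 on array A alone (42 genes) and 57.8 on array B alone (32 genes). Mcm4 was the brightest gene of the list, Rfc2, of the clamp loader, read 3342 and the mitotic kinase Cdk1 2281 (percentile 93.6). Ccne1 and the spindle checkpoint kinase Ttk were dim, with intensities of 53.8 and 43.1. Histone and chromatin genes had the lowest median of the 42 lists, 41.1 over 42 genes. Below the 25th percentile lay 13 of them (30.95%, against 22.2% of all genes). At or above the 90th lay 1 (2.38%, against 8.08%). That 1 gene was Smarcb1, a core subunit of a chromatin remodeller, with spots at 7557 and 5621. Cbx1, a heterochromatin protein, and the DNA methyltransferase Dnmt3b were at the dim end, with intensities of 18.2 and 39.1. The median was 37.98 after removal of set medians and 51.3 when each gene was taken at its brightest spot.

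Genes with several spots that were all bright were few. Of 388 genes with more than 1 spot and at least 1 of them at or above the 90th percentile, 22 had all spots there. As a background, 5.26% of pairs of spots of different genes on the same array with at least 1 there had both there. Whether 22 of 388 exceeds such a share was not tested. Besides Ftl1, each of the 22 genes had 2 spots. They were led by Smarcb1 (97.5 and 98.9), the SMC5/6 complex gene Nsmce1 (96.8 and 99.1) and Hprt, of purine salvage, which read at percentile 98.8 on one array and 96.0 on the other. Ints3, of the Integrator complex (95.7 and 96.6), Col4a1, a basement membrane collagen (94.0 and 93.0), and the AMPK-activating kinase gene Stk11 (97.8 and 90.3) belonged to them too. With set medians removed, the medians of the 22 ran from 64.4 (Ftl1) to 98.4 (Hprt). Genes with 1 spot, such as all 17 for secreted hepatocyte proteins, could not belong to them.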

How the data were processed

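The deposited table holds the intensity of each spot, linear and without a stated unit. What the authors did to make them, scaling and background treatment included, is not given in the sources used here. The unit was read from the values. Probes were named through GEO's platform annotation: of 16896 spots 9663 had 1 symbol, 436 several and 6797 none. Of the named spots 9641 matched RefSeq (GRCm38.p6) by gene number, with 0 symbols changed.

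Percentiles were 100 times (rank minus 0.5) over the number of named spots of an array, so scaling an array changes none. A gene took the median over its spots on both arrays. Named were the 15 brightest spots of each array, the extremes of median and range among genes with at least 3 spots, all genes with 6 or more, up to 4 brightest and 2 dimmest of each list, and the markers with a spot. Others (such as Serpina6, Selenop, Fga, Serping1, Gpx1, Mt2, Eef1a1, Rpl36a, Atg7, Apc, Cd63 and the genes with all spots bright) were chosen after their values were seen. In 1 list a gene is counted but not reported here by name. The members and lists were chosen with earlier results of these data known.

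Set medians were removed on the log2 scale of the deposited intensity. Alternatives were each array alone, the mean or brightest spot of a gene, other thresholds, other spot filters and removal of set medians. The ranking was tested on simulated data. Python 3.11.15, numpy 2.4.6, pandas 2.3.3, scipy 1.17.1 and matplotlib 3.10.9 were used.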

Additional observations from a re-analysis of the deposited data

How the results depend on the processing

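The count of list genes at or above the 90th percentile was 134 of 1585. It was 80 of 869 on array A alone, 83 of 941 on array B alone, 233 with each gene at its brightest spot, and 259 of 2303 with each spot counted. It was 370 at the 75th and 68 at the 95th percentile. On array A alone list medians were 84.3 for antioxidant enzymes, 73.5 for cytochrome P450 and conjugation, 54.2 for ribosomal proteins, 49.7 for fatty acid oxidation, 78.7 for germline genes, 73.3 for secreted hepatocyte proteins and 71.5 for lysosomal genes. On array B alone they were 52.1 for antioxidant enzymes, 60.5 for cytochrome P450 and conjugation, 60.4 for germline genes and 55.3 for secreted hepatocyte proteins. With the brightest spot they were 66.3 for ribosomal proteins, 51.3 for histones and 77.7 for lysosomal genes, and with the mean 62.2 for germline genes. After removal of set medians, chosen after seeing the data, they were 57.6 for antioxidant enzymes, 49.5 for ribosomal proteins, 64.2 for germline genes, 72.0 for secreted hepatocyte proteins, 55.1 for Kupffer cell genes and 53.7 for lysosomal genes. The cause was not tested. The difference between spots of a gene, 25.2 points, lay between 24.5 and 27.6 points in the alternatives run, against 29.3 for spots of different genes. The values nearest to that of different genes were 27.6 after removal of set medians and 27.3 with each gene taken once. No paired analysis was possible because only 1 mouse was described. With 1 array of each kind and no background values, the precision of a rank is unknown.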

Other observations

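Germline and testis genes had a median percentile of 69.5 over 17 genes. The piRNA pathway gene Tdrd1 (94.8) and the meiotic chromosome genes Sycp2 (89.6) and Sycp3 (86.2) were the brightest. Dazl, an RNA-binding protein of germ cells, read exactly 10, a value shared by 15 named spots of array B. Of the 17 genes, 5 were below the 25th percentile (29.4%, against 22.2% of all genes). The list of ion channel genes had a median of 63.7 over 26 genes. Its brightest member, Grina (98.9), is not itself a channel, and Kcnq1 (97.7) and Kcnk1 (93.9) followed. Below the 25th percentile lay 7 of the 26 genes (26.9%, against 22.2% of all genes). The list median was 58.98 after removal of set medians. Neuron genes had a median of 45.2 over 7 genes, of 76.8 on array A alone (5 genes), 20.6 on array B alone (3 genes) and 76.6 after removal of set medians. Tubb3, a neuronal tubulin, lay at 86.6, Snap25, of synaptic vesicle fusion, at 67.6, the neurofilament gene Nefl at 39.6 and 13.3, the growth cone gene Gap43 at 20.6 and Mapt, tau, at 19.7.

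Extracellular matrix and integrin genes had a median of 52.6 over 62 genes. As ranked, 10 of 62 were at or above the 90th percentile (16.1%, against 8.08% of all genes) and 17 below the 25th (27.4%, against 22.2%). After removal of set medians 6 of 62 were at or above the 90th percentile, against 7.97% of all genes. The list median was 36.0 on array A alone (28 genes) and 61.3 on array B alone (45 genes). Tnc, tenascin C, lay at percentile 99.3 and the fibronectin gene Fn1 at 96.2, while Col12a1 lay at 1.33. Solute carriers had 10 of 116 genes at or above the 90th percentile (8.62%), and genes named Zfp had 8 of 103 (7.77%).

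Spots with no gene symbol were brighter than named spots at the median, at 420.5 against 331.3 on array A and 475.8 against 371.9 on array B. Among all spots of an array ranked together, 12.3% and 13.3% of them were at or above the 90th percentile, against 8.29% and 7.84% of the named spots. Named spots with accessions that start with AW had median percentiles of 67.1 on array A and 71.8 on array B.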
